A study of Mus musculus with 12 samples.

Results

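Microglia of the cerebellum were compared with microglia of the cortex across all genes expressed in these cells. Members were the 3 cerebellum and the 3 cortex libraries, 6 of the 12 libraries of the series, which also holds 3 libraries each of hippocampus and striatum. Of 23337 gene symbols in the deposited count table, 12217 had enough reads to be tested. All animals were wild-type male C57BL/6N mice at postnatal day 60 (adult), with no treatment named in the labels. For each library, one region was collected from 3 to 5 mice as a pool, dissociated on ice, and 3000 live cells positive for the surface protein TMEM119, with low CD45 and with CD11b, were sorted. Full-length cDNA was made with Smart-seq v4. Cells without TMEM119 were outside the gate, so the comparison covers the TMEM119+ part of each region's microglia, and the level of Tmem119 itself is bound to the sort. Whether different mice went into each pool is not said in the labels, so the p-values reflect spread among the libraries as made, part of which may be technical.

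Microglia are the resident macrophages of the brain. They depend on signalling through CSF1R and TGF-beta receptors, survey the tissue with processes steered by the ADP receptor P2RY12, clear dying cells and synapses, and can present antigen on MHC class II molecules. Cerebellar microglia are known as sparser, less ramified and more active in clearing dying cells than those of the forebrain.

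No gene passed the adjusted threshold of 0.05 in edgeR's quasi-likelihood test in either direction, and the smallest adjusted p was 1.00. Before adjustment 189 genes (1.55%) lay under 0.05, of which 119 (0.974%) were higher and 70 (0.573%) were lower in cerebellum. Limma-voom also called 0 genes (229 before adjustment), and DESeq2 called 7, of which 5 (0.0409%) were higher and 2 (0.0164%) lower in cerebellum. Of 9950 genes that averaged 5 CPM or more (CPM are counts scaled to 1000000 per library), 3.58% had all cerebellum libraries above all cortex libraries and 2.76% had all below. Among these, with the libraries not overlapping, the genes with the smallest p were Cd74, the MHC class II invariant chain, lower in cerebellum, and Il10ra, the interleukin 10 receptor, higher in cerebellum. Around them, receptor genes of the resting microglial programme leaned higher in cerebellum, and genes of glycolysis, cholesterol synthesis and replication licensing leaned lower. Some of this depended on single libraries. The median log2 difference of the homeostatic list was -0.01 without cerebellum 1. That of replication licensing was -0.06 without cerebellum 3 and cortex 1. Those leanings are described as counts and medians, since no member passed the adjusted threshold.

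A total of 825 genes (6.75%) had libraries that did not overlap between the regions: in 467 (3.82%) every cerebellum library lay above every cortex library, and in 358 (2.93%) every one lay below. The log2 difference, here always cerebellum minus cortex, was above 0 in 6214 genes (50.9%) and below 0 in 5998 (49.1%). Its median over all genes was 0.01. If independent libraries did not differ by region, the 3 of one region would separate from the other 3 with a probability of 0.1. The 6.75% of genes without overlap lay under that share, and the 1.55% under an unadjusted p of 0.05 lay under that threshold. Neither value allows for the replicate numbers, which same-numbered libraries of the regions shared. A gene with both libraries of a number above the other 4 cannot separate the regions, and for number 1 that held in 18.9% of genes. These shares therefore cannot show whether the regions differed less than by chance.

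**Figure D1:**
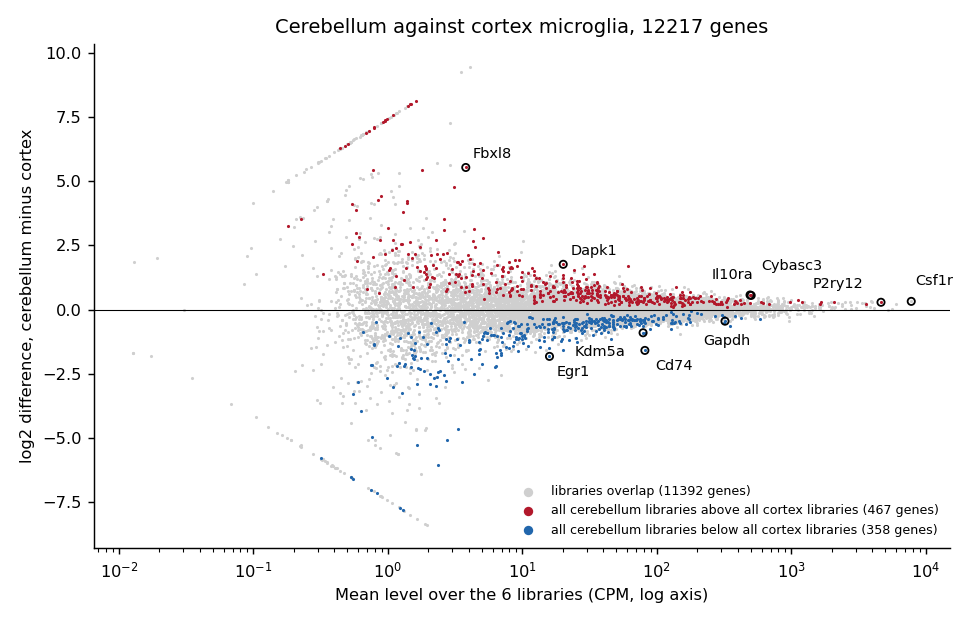
The mean level of each of 12217 genes over the 6 libraries (CPM, log axis) is plotted against its log2 difference, cerebellum minus cortex, with each point a gene. Red points are the 467 genes whose cerebellum libraries all lay above the cortex libraries, blue points the 358 whose cerebellum libraries all lay below, and the rays of points at low levels are genes with no count in one of the regions.

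The size of difference that could be seen depended on the level. The 95% interval of the log2 difference lay within 2-fold either way in 3996 genes (32.7%) and within 1.5-fold in 761 (6.23%). By quartile of expression, from lowest to highest, 0.196%, 7.24%, 42.7% and 80.7% of genes had an interval within 2-fold. The median half-width of the interval was 3.24, 1.29, 0.80 and 0.57 on the log2 scale in the same quartiles. For most genes in the highest quartile a regional difference over 2-fold therefore lay outside the interval. In the 2 lowest quartiles the median half-width was wider than 1, the log2 value of a 2-fold difference. Leaving the hippocampus and striatum libraries out of the estimate of the spread gave 4524 genes within 2-fold.

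Total counts were 8862318, 12566066 and 8537139 in cerebellum libraries 1, 2 and 3, against 12703936, 14833340 and 9525930 in cortex libraries 1, 2 and 3. Genes with at least 1 count numbered 12708 to 12807 in cerebellum and 12617 to 13582 in cortex. All values per library below follow the order 1, 2 and 3. No library was a copy of another (chi-square per degree of freedom 43.92 to 93.34 between libraries of a region).

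The cells matched their label as microglia and carried little trace of their region. Csf1r and P2ry12 were among the most abundant transcripts in all 6 libraries, with at least 4085 CPM each. Of 17 markers of cerebellar neurons and glia, 2 had enough reads to be tested, and Gabra6 and Cbln1 of granule cells, Pvalb of Purkinje cells and interneurons, and the hindbrain gene En2 had no count in any of the 6 libraries. Those markers summed to 29.5, 30.8 and 36.1 CPM in cerebellum libraries, against 28.8, 44.4 and 38.2 CPM in cortex libraries. Most of that sum was Etv1, a transcription factor gene also read in both regions, at 24.8, 29.1 and 26.7 CPM in cerebellum, against 25.3, 29.5 and 31.8 CPM in cortex. The 14 forebrain markers summed to 8.22, 6.02 and 9.58 CPM in cerebellum libraries, against 8.36, 5.63 and 0.731 CPM in cortex libraries, and Emx1 and Tbr1, which mark cortical neurons, had no count. Neither sum separated the libraries by region, although Cux2, of upper-layer cortical neurons, had 2, 28 and 2 counts in cerebellum, against 0 counts in all cortex libraries. Where a library had no count, up to 3 counts (0.202 to 0.351 CPM in these 6 libraries) remained possible.

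Whole-transcriptome similarity did not group the libraries by region. The mean Pearson correlation of log2 CPM across genes was 0.900 within regions and 0.905 between them, or -0.00487 within minus between (exact one-sided permutation test over the 10 ways of dividing the 6 libraries, p = 0.7; the smallest p this design allows is 0.1). The closest pair was cerebellum 2 with cortex 2 at 0.928, and the least alike was cerebellum 3 with cortex 1 at 0.858. Genes are not independent replicates, so these values describe the libraries.

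**Figure D2:**
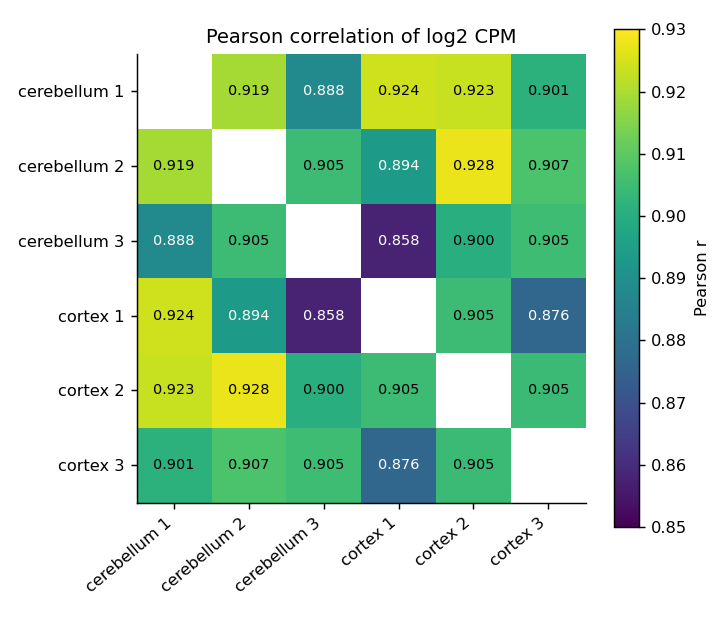
Pearson correlation of log2 CPM across the 12217 tested genes for each pair of libraries, cerebellum first on both axes, coloured from 0.85 to 0.93. Same-numbered libraries of the regions reach 0.924 (number 1) and 0.928 (number 2), and the lowest value, 0.858, joins cerebellum 3 and cortex 1.

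The libraries also differed along axes that the regions did not set. In 2308 genes (18.9%) both libraries numbered 1 lay above the other 4, in 1459 (11.9%) both numbered 3 did, and in 704 (5.76%) both numbered 2 did. The corresponding counts below the other 4 were 2049 (16.8%), 1508 (12.3%) and 677 (5.54%). Abca1, the cholesterol exporter, had 109.8, 315 and 1271 CPM in cerebellum, against 110.4, 300.1 and 711 CPM in cortex. Both libraries 1 were lowest and both libraries 3 highest within their region, and the regions overlapped. Ttr, the transthyretin gene of choroid plexus, had 0.348, 21.3 and 203 CPM in cerebellum, against 0, 14.9 and 75.5 CPM in cortex, so plexus RNA was near 0 in both libraries 1 and highest in both libraries 3. Whether the numbers mark days, litters or positions in the workflow is not given in the sources used here.

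Transcript length was a further axis. In the shortest quartile of transcripts (64 to 2153 bases) cerebellum 1 deviated by 0.23 and cerebellum 3 by -0.30 from the mean of the 6 libraries (median log2), while cortex 1 deviated by 0.43. In the longest quartile (4731 to 123179 bases) the same libraries stood at -0.32, 0.47 and -0.41. The other 3 libraries stayed between -0.11 and 0.17 in these 2 quartiles. The median log2 difference between the regions was -0.15, -0.01, 0.06 and 0.15 from the shortest to the longest quartile, and with cerebellum 3 and cortex 1 both left out it turned to 0.16, 0.07, -0.03 and -0.18. Values without these 2 libraries are therefore given beside the gene groups. That comparison sets cerebellum 1 and 2 against cortex 2 and 3, so it keeps only number 2 in both regions.

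**Figure D3:**
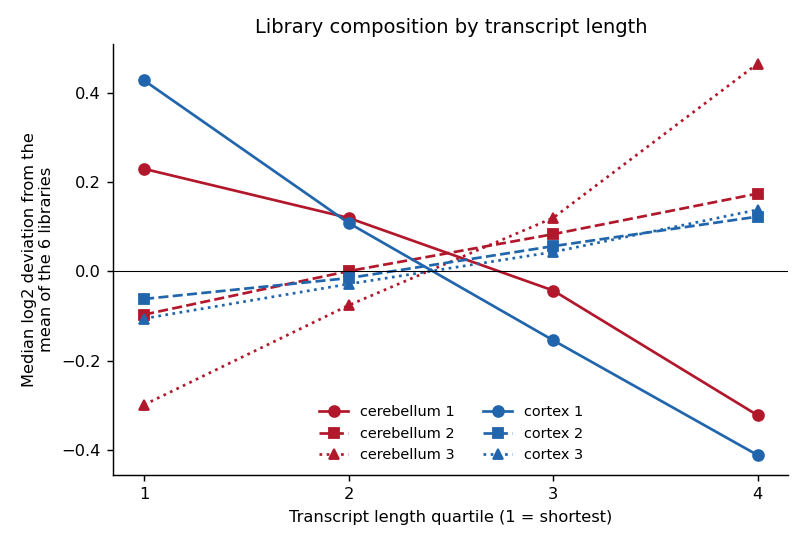
Median log2 deviation of each library from the mean of the 6 libraries (vertical axis), by quartile of transcript length from shortest to longest (horizontal axis), with cerebellum libraries in red and cortex libraries in blue. Cortex 1 runs from 0.43 to -0.41, cerebellum 3 runs the opposite way from -0.30 to 0.47, and cerebellum 1 follows cortex 1 with a smaller slope.

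Antigen presentation gave the gene with the smallest p among those of at least 5 CPM. Cd74 encodes the invariant chain that escorts MHC class II molecules to the endosome (chromosome 18, 60803849 to 60812652, GRCm38). It had 39.8, 39.8 and 42.3 CPM in cerebellum, against 104, 127 and 136 CPM in cortex. The cerebellum libraries lay within a few CPM of each other and well below every cortex library. Means were 40.7 ± 1.41 CPM in cerebellum and 122 ± 16.5 CPM in cortex (SD, n = 3 each), a log2 difference of -1.59 (SE 0.37, 95% interval -2.39 to -0.78; edgeR adjusted p = 1.00). The adjusted p of Cd74 was 0.0522 in DESeq2, above the threshold, and 0.530 in edgeR without striatum 2. The difference was -1.38, -1.66 and -1.68 within replicate numbers 1, 2 and 3, and -1.72 without cerebellum 3 and cortex 1.

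No other gene of the class II list separated the regions. Of its 10 genes 7 were tested, and 4 lay above 0 and 3 below. The median log2 difference of 0.04 had no stable sign: it was 0.26 without cerebellum 3 and cortex 1, -0.41 without cerebellum 1 and -0.19 with the replicate number as a block. H2-Ab1, the beta chain of the I-A molecule, had 12.2, 8.59 and 6.35 CPM in cerebellum, against 13.7, 6.54 and 11.6 CPM in cortex. The regions overlapped for H2-Ab1, and H2-Aa, its alpha partner, and Ciita, the master regulator of the class II genes, had no count in any of the 6 libraries. H2-DMa, a chain of the peptide exchange factor, had a log2 difference of -0.35, which was -0.25, -0.19 and -0.68 within numbers 1, 2 and 3 and 0.10 without cerebellum 3 and cortex 1, and H2-Ob, a chain that restrains it, had 0.28. Among 14 class I genes, all tested, 10 lay above 0 (median 0.11, and 0.14 without cerebellum 3 and cortex 1). Tapbp, which holds class I molecules at the peptide transporter, had 442, 353 and 421 CPM in cerebellum, against 339, 344 and 353 CPM in cortex, a difference of 0.23.

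Border-associated macrophages, the other macrophages of the brain's coverings, also express Cd74. The 13 genes listed for them summed to 267, 417 and 682 CPM in cerebellum libraries, against 286, 598 and 885 CPM in cortex libraries. Within each number the cerebellum sum was the lower. Of the 11 tested, 8 lay below 0. Their median of -0.85 changed with the fit: it was -1.48 without cerebellum 3 and cortex 1, 0.56 without cortex 3, -0.33 with the replicate block and 0.07 in limma-voom. The only member whose libraries did not overlap was Cbr2, a carbonyl reductase gene, at 5.91, 3.98 and 7.19 CPM in cerebellum, against 10.6, 8.15 and 19.4 CPM in cortex. Mrc1, the mannose receptor that defines these cells, had 229, 389.8 and 582 CPM in cerebellum, against 253, 562 and 712 CPM in cortex. The sums overlapped between regions. Within cerebellum Cd74 stayed level while the sums ran from 267 to 682 CPM. Within cortex Cd74 rose from 104 to 136 CPM as the sums rose from 286 to 885 CPM. The part of these macrophages in the Cd74 difference was not tested.

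Cytokine receptors leaned higher in cerebellum. Il10ra encodes the ligand-binding chain of the receptor through which interleukin 10 restrains microglial activation (chromosome 9, 45253837 to 45269149, GRCm38). It had 632, 543 and 617 CPM in cerebellum, against 385, 426 and 413 CPM in cortex. All cerebellum libraries lay above all cortex libraries, with a log2 difference of 0.55 (SE 0.15, 95% interval 0.24 to 0.87), and of 0.49 without cerebellum 3 and cortex 1. Of 24 receptor genes tested, 17 lay above 0 (median 0.13, and 0.00 without those libraries), and 3 (against 3.82% of all genes) had libraries that did not overlap. The others were Ifngr1, the interferon gamma receptor, with 1565, 1195 and 1202 CPM in cerebellum, against 1089, 1020.3 and 1104 CPM in cortex (0.30), and Tnfrsf1b, the second TNF receptor, with 650.1, 674 and 657 CPM in cerebellum, against 539, 643 and 499 CPM in cortex (0.24). Csf3r, the receptor of granulocyte colony-stimulating factor, overlapped between regions with a difference of 0.40, or 0.25 without cerebellum 3 and 0.15 without both cerebellum 3 and cortex 1.

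The homeostatic list, 27 genes that mark resting microglia, showed the same lean. A total of 25 of 27 lay above 0, against 50.9% of all genes, with a median log2 difference of 0.15 (0.26 without cerebellum 3 and cortex 1, -0.01 without cerebellum 1). P2ry12 had 6406, 4553 and 4329.9 CPM in cerebellum, against 4171, 4085 and 4292 CPM in cortex. Every cerebellum library was above every cortex library, but cerebellum 3 exceeded cortex 3 by less than the range within cortex, and the difference was 0.29 (95% interval -0.08 to 0.65), or 0.08 without cerebellum 1. Slco2b1, an organic anion transporter, had 1884, 1824 and 1802 CPM in cerebellum, against 1295, 1695 and 1493 CPM in cortex, a difference of 0.30 (0.02 to 0.58). P2rx7, the ATP-gated channel upstream of the inflammasome, had 292, 372 and 284 CPM in cerebellum, against 167, 277 and 265 CPM in cortex, a difference of 0.42 (0.21 without cortex 1).

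Other widely used microglial markers overlapped between regions. Tmem119 had 3241, 2043 and 1082 CPM in cerebellum, against 2601, 2107 and 1341 CPM in cortex, a log2 difference of 0.07 (-0.65 to 0.80) that turned to -0.37 without cerebellum 1. Cx3cr1, the fractalkine receptor, had 3739.7, 2527 and 2056 CPM in cerebellum, against 3065, 3463 and 1769 CPM in cortex, a difference of 0.00 (-0.58 to 0.59). Csf1r, the receptor microglia need to survive, had 8496, 7767 and 9680.5 CPM in cerebellum, against 5691, 7173 and 7918 CPM in cortex. Cerebellum 2 lay just under cortex 3, and the difference was 0.32 (0.00 to 0.64), or 0.11 without cerebellum 3 and cortex 1.

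**Figure D4:**
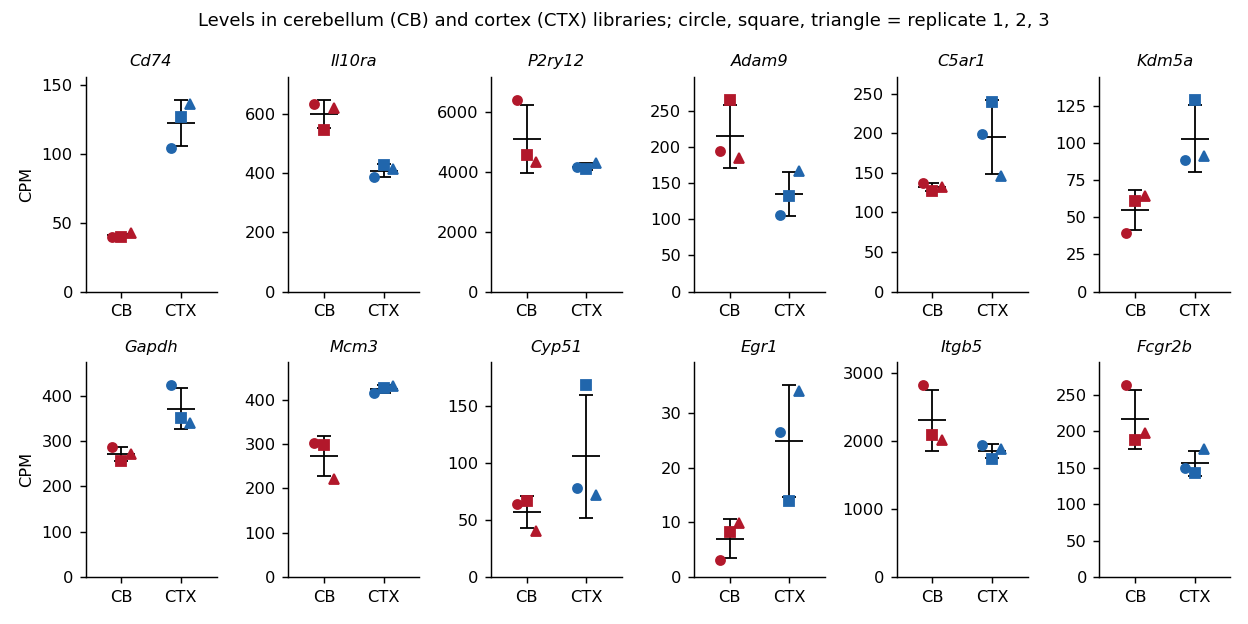
Levels in CPM of 12 genes (1 panel each) in cerebellum (CB, red, left) and cortex (CTX, blue, right), with circles, squares and triangles for replicates 1, 2 and 3 and bars for the mean ± SD of 3 libraries. The panels show genes whose libraries do not overlap, from Cd74 at 39.8 to 42.3 CPM in cerebellum against 104 to 136 CPM in cortex, to P2ry12, where the lowest cerebellum and the highest cortex library nearly touch.

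Purinergic signalling, the sensing and breakdown of extracellular nucleotides, also leaned higher. Of 9 genes tested, 6 lay above 0 and 3 did not overlap, all higher (against 3.82% of all genes), P2ry12, P2rx7 and Entpd1. The list's median was 0.29 (0.29 without cerebellum 3 and cortex 1, and 0.085 without cerebellum 1). Entpd1, the ectoenzyme CD39 that degrades ATP and ADP, had 696, 645 and 614 CPM in cerebellum, against 439, 605 and 555 CPM in cortex, a difference of 0.29. P2ry13, an ADP receptor gene next to P2ry12 in the genome, overlapped with a difference of 0.30. Ada, which converts adenosine to inosine, was lower with overlap, at 12.9, 5.78 and 4.07 CPM in cerebellum, against 37.8, 18.1 and 10.9 CPM in cortex. Its difference was -1.55 (95% interval -2.83 to -0.28), and within replicate numbers it was -1.54, -1.61 and -1.38. It was -0.94 without cortex 1 and -0.64 without cerebellum 3 and cortex 1.

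Toll-like receptors and NF-kB genes lay higher in 21 of 27, with a median of 0.20 (0.17 without cerebellum 3 and cortex 1). Tlr1, which pairs with TLR2 on bacterial lipopeptides, had 129, 159.9 and 153 CPM in cerebellum, against 85.99, 111 and 125 CPM in cortex and Nfkbie, an inhibitor of NF-kB, had 50.04, 41.01 and 45.3 CPM in cerebellum, against 34.1, 22.1 and 35.6 CPM in cortex. Neither overlapped, with differences of 0.45 and 0.57. Tlr3, the receptor for double-stranded RNA, had 41.01, 80.1 and 72.9 CPM in cerebellum, against 26.1, 39.3 and 43.7 CPM in cortex. Cerebellum 1 lay under cortex 3 for Tlr3, whose difference was 0.83 (95% interval 0.02 to 1.64). Inhibitory receptors lay higher in 13 of 17 (median 0.22, and 0.00 without cerebellum 3 and cortex 1). Laptm5, a lysosomal brake on immune receptors, did not overlap (0.22), whereas Pilra, an inhibitory immunoglobulin-like receptor, lay lower, at 33.5, 29.5 and 13.3 CPM in cerebellum, against 47.4, 45.2 and 41.8 CPM in cortex, with a difference of -0.82 (-0.51 without cerebellum 3).

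Complement and chemotaxis genes split. C5ar1, the receptor of the complement fragment C5a, had 138, 127 and 132 CPM in cerebellum, against 199.5, 239.8 and 146 CPM in cortex. All cerebellum libraries were below all cortex libraries, with a difference of -0.56 (95% interval -1.09 to -0.03). Ccr1, a receptor of CCL3 and CCL5, also lay lower, at 102, 129 and 54.6 CPM in cerebellum, against 149.6, 194 and 135 CPM in cortex, a difference of -0.75. Of 9 chemokine receptor genes tested, 3 did not overlap on the lower side (against 2.93% of all genes), and 5 lay above 0. The list's median was 0.00, and it moved to -0.50 without cerebellum 3 and cortex 1 and to 0.16 without cortex 2.

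Chemokine and cytokine ligands lay lower in 11 of 18, with 3 genes lower without overlap (against 2.93% of all genes). The median of -0.24 was -0.30 without cerebellum 3 and cortex 1, but -0.03 with the replicate block, -0.02 in limma-voom and 0.04 without cortex 3. Ccl2, which draws monocytes, had 14.2, 11.4 and 4.55 CPM in cerebellum, against 32.1, 31.6 and 25.7 CPM in cortex, and its neighbour Ccl7 had 1.85, 3.05 and 2.28 CPM in cerebellum, against 5.39, 10.7 and 5.12 CPM in cortex. Ccl24, an eosinophil chemokine, had 7.18, 5.86 and 7.31 CPM in cerebellum, against 15.8, 10.03 and 15.7 CPM in cortex. Their differences were -1.56, -1.56 and -1.03, each with a 95% interval that included 0. In each of the 3 genes every cerebellum library was below every cortex library.

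Fc receptors and clearance genes gave differences in both directions. Fcgr2b, the inhibitory Fc gamma receptor, had 263, 189 and 198 CPM in cerebellum, against 150.02, 142 and 176 CPM in cortex, a difference of 0.47. Itgb5, the beta chain of the integrin that binds the eat-me bridge protein MFGE8, had 2818, 2084 and 2009 CPM in cerebellum, against 1937, 1732 and 1888 CPM in cortex, a difference of 0.31 (95% interval 0.01 to 0.62). Scarb1, the HDL and phosphatidylserine receptor, lay lower, at 163, 119 and 169.7 CPM in cerebellum, against 207, 202 and 179.6 CPM in cortex, a difference of -0.38. None of these 3 overlapped. The complement and Fc receptor list lay above 0 in 12 of 18. Its median of 0.08 was 0.25 without cerebellum 3 and cortex 1 and -0.11 without cerebellum 1. The clearance list as a whole lay above 0 in 16 of 23 (median 0.12), and its median was -0.11 without cerebellum 3 and cortex 1. In each of these 2 lists 1 gene was higher and 2 were lower without overlap, against 3.82% and 2.93% of all genes.

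Among the 16 clearance genes above 0, Mertk, a receptor tyrosine kinase for apoptotic cells, had 202, 393 and 507 CPM in cerebellum, against 154, 268 and 372 CPM in cortex. Tgfbr1 and Tgfbr2, the TGF-beta receptors that maintain the microglial state, had differences of 0.46 and 0.55. The Mertk difference of 0.47 turned to -0.10, that of Tgfbr1 to -0.18 and that of Tgfbr2 to 0.05 once cerebellum 3 and cortex 1 were left out. Within numbers 1, 2 and 3 the Tgfbr2 difference was 0.50, 0.42 and 0.70, and Mertk stood higher in cerebellum in each number. All 3 genes were lowest in both libraries 1.

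Genes of the disease-associated programme, which microglia raise around plaques and dying cells, showed no lean with all libraries. Of 26 tested, 12 lay above 0, none had libraries that did not overlap, and the median was -0.04. Without cerebellum 3 and cortex 1 the median was -0.35, with 6 above 0 and 20 below. Apoe, the lipid carrier at its core, had 4091, 2956 and 6033 CPM in cerebellum, against 2887, 2147 and 5459 CPM in cortex, a difference of 0.32 that turned to -0.11 without those libraries. Within numbers 1, 2 and 3 the Apoe difference was 0.50, 0.46 and 0.14. Interferon response genes divided evenly, with 13 of 25 above 0 (median 0.07, and -0.06 without cerebellum 1). Without cerebellum 3 and cortex 1, 18 of 25 lay above 0 with a median of 0.26.

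Glycolysis was the metabolic list with the most non-overlapping genes. It lay lower in cerebellum in 15 of 20 (median -0.33, and -0.25 without cerebellum 3 and cortex 1), and 7 of 20 did not overlap, all lower (against 2.93% of all genes). Gapdh, the enzyme at the middle of the pathway, had 287, 255 and 271 CPM in cerebellum, against 422, 351 and 339 CPM in cortex, a difference of -0.45 (95% interval -0.83 to -0.07). Gpi1, which isomerises glucose 6-phosphate, had 99.9, 119 and 122 CPM in cerebellum, against 192, 135 and 155 CPM in cortex, a difference of -0.50. Tpi1, triose phosphate isomerase, had 137, 115 and 116 CPM in cerebellum, against 187, 187 and 153 CPM in cortex, a difference of -0.52. The other 4 were Aldoa (-0.29), Pgam1, Eno1 and Pkm2, the pyruvate kinase gene of these cells (-0.35). The list's median stayed below 0 in all 18 fits, from -0.42 to -0.24. Hexokinases and glucose transporters, at the entry of the pathway, were among the 5 above 0 (Hk2, Hk3, Slc2a1, Slc2a5, with Ldhb).

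Oxidative phosphorylation and ribosomal protein genes lay lower almost without exception, with medians below 0 within each replicate number, but this direction turned when cerebellum 3 and cortex 1 were left out. Of 42 genes of oxidative phosphorylation 40 lay below 0 (median -0.28), and of 46 cytosolic ribosomal protein genes 46 did (median -0.37). Without cerebellum 3 and cortex 1 the medians were 0.14 and 0.09, with 36 of 42 and 37 of 46 genes above 0. With a correction for transcript length they were -0.16 and -0.24. Within numbers 1, 2 and 3 the median difference was -0.30, -0.14 and -0.46 for oxidative phosphorylation and -0.50, -0.21 and -0.26 for ribosomal proteins. In 33 of 42 and 37 of 46 genes cerebellum was lower within all 3 numbers, against 15.2% of all genes. Cox5a, a cytochrome oxidase subunit, had 101, 88.2 and 65.6 CPM in cerebellum, against 136, 117 and 84.1 CPM in cortex. Cortex 1 was the highest library for Cox5a, and it was also the library with the highest deviation in the shortest length quartile. The Cox5a difference was -0.425, -0.405 and -0.357 within numbers 1, 2 and 3. The part of transcript length in these differences was not tested. Ribosomal protein genes have near-identical pseudogenes, so their counts are uncertain.

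Among both lists Rpl23, of the large subunit, was the only gene whose libraries did not overlap, at 46.5, 46.01 and 31.5 CPM in cerebellum, against 82.4, 51.6 and 46.7 CPM in cortex. Translation factors lay lower in 15 of 19 (median -0.22, and -0.07 without those 2 libraries), with Eef1g, an elongation factor subunit, at 68.5, 71.2 and 63.4 CPM in cerebellum, against 105, 89.5 and 77.7 CPM in cortex and Eif4a1, the helicase of cap-dependent initiation, at 349, 329 and 357 CPM in cerebellum, against 441, 406 and 395 CPM in cortex. Both were lower without overlap, by -0.42 and -0.26.

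Cholesterol synthesis had the lowest median of the metabolic lists. Of 24 genes 22 lay below 0, with a median of -0.53 (-0.38 without cerebellum 3 and cortex 1, -0.59 with the length correction), and the median stayed below 0 in all 18 fits. Sqle, squalene epoxidase, had 30.3, 38.7 and 11.02 CPM in cerebellum, against 96.3, 113 and 32.1 CPM in cortex. Both regions had their lowest library at number 3, so the regions overlapped, yet the difference within numbers was -1.66, -1.54 and -1.53. Cyp51, the lanosterol demethylase, had 64.1, 66.7 and 40.7 CPM in cerebellum, against 77.9, 169 and 72.2 CPM in cortex, a difference of -0.89 that shrank to -0.40 without cortex 2. Hmgcs1, the enzyme before the rate-limiting step, had 58.4, 55.9 and 37.97 CPM in cerebellum, against 58.2, 114 and 70.5 CPM in cortex, a difference of -0.67. The regions overlapped for Hmgcs1 as well. The members above 0 were Nsdhl and Srebf2, the transcription factor of the pathway. Cholesterol efflux and lipid handling genes showed no lean with all libraries (9 of 17 above 0, median 0.07). Without cerebellum 3 and cortex 1 the median was -0.35, with 0 of 17 above 0.

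**Figure D5:**
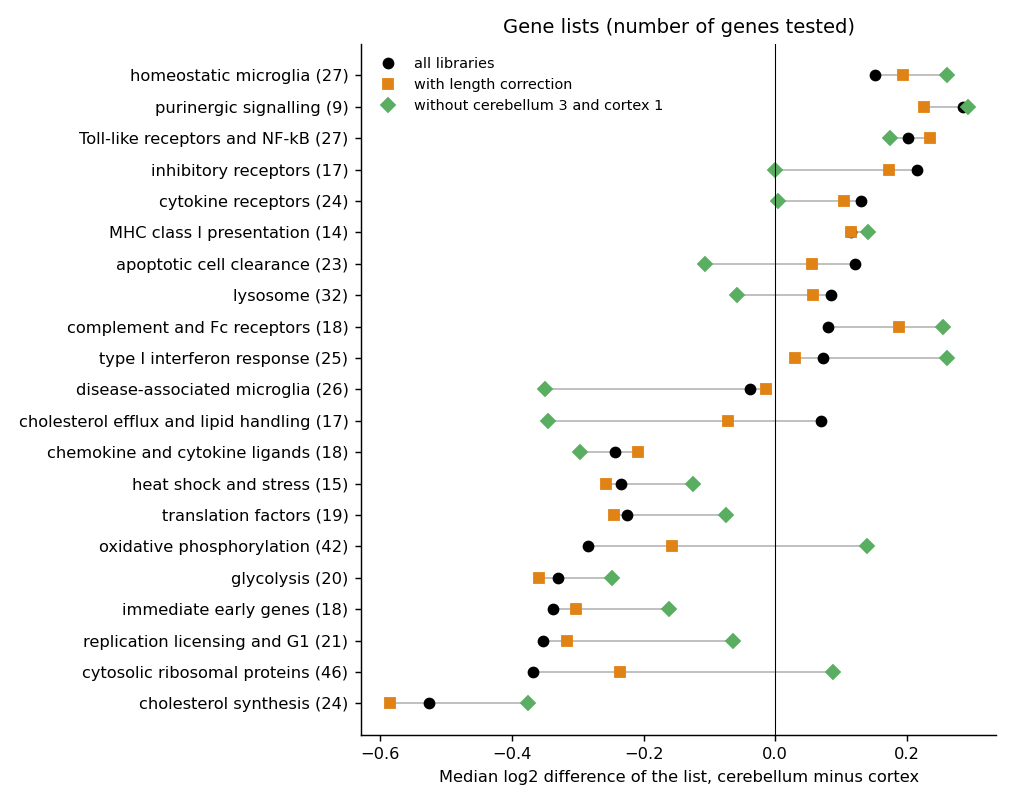
Median log2 difference, cerebellum minus cortex, of 21 gene lists (number of genes tested in brackets), in all libraries (black circles), with a correction for transcript length (orange squares) and without cerebellum 3 and cortex 1 (green diamonds). Cholesterol synthesis (-0.53) and glycolysis (-0.33) stay left of 0 in all 3, homeostatic genes stay right of it (0.15 to 0.26), and ribosomal protein and oxidative phosphorylation genes cross it.

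Replication licensing and G1 genes prepare chromatin for DNA synthesis. A total of 18 of 21 lay below 0 (median -0.35, and -0.06 without cerebellum 3 and cortex 1), and 3 did not overlap, all lower (against 2.93% of all genes). Mcm3, a subunit of the replicative helicase, had 302, 297 and 222 CPM in cerebellum, against 415, 425 and 431 CPM in cortex, a difference of -0.63 (95% interval -1.19 to -0.07). Mcm6, of the same ring, had 243, 275 and 253 CPM in cerebellum, against 294, 464 and 354 CPM in cortex, a difference of -0.53. Cdt1, which loads the helicase, had 71.8, 85.6 and 43.8 CPM in cerebellum, against 97.2, 90.2 and 94.6 CPM in cortex, a difference of -0.49. All 3 stood lower in every cerebellum library than in any cortex library. The proliferation list, with genes of later stages of the cycle, lay below 0 in 9 of 14 (median -0.22, and -0.06 without cerebellum 3 and cortex 1). The libraries of all its genes overlapped. Within all 3 replicate numbers 6 of its 14 genes were lower in cerebellum and 0 were higher. For replication licensing and G1 11 of 21 were lower within all 3 numbers, and of all genes 15.2% were.

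The promoters of these 3 genes are shown because the genes lay lower together and E2F factors are known to drive them. Windows run from 250 bases before to 50 bases after the RefSeq start of transcription (GRCm38.p6), and capitals mark the letters TTTGGCGC or TTTCCCGC on either strand, a pair of E2F-type motifs. The search was chosen after the values were seen.
Mcm3, chr1:20820263-20820562, minus strand: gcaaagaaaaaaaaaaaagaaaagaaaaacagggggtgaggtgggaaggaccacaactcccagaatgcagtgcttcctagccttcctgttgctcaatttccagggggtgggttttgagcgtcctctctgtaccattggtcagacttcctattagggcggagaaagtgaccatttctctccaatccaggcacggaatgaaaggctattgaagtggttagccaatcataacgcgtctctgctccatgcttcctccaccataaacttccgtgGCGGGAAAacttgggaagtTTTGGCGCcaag
Mcm6, chr1:128359656-128359955, minus strand: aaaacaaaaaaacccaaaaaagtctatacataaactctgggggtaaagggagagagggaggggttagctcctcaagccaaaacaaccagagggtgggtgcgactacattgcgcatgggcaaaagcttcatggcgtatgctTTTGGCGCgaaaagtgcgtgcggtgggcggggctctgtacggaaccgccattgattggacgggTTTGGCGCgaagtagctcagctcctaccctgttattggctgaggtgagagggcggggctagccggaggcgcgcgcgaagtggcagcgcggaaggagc
Cdt1, chr8:122567765-122568064, plus strand: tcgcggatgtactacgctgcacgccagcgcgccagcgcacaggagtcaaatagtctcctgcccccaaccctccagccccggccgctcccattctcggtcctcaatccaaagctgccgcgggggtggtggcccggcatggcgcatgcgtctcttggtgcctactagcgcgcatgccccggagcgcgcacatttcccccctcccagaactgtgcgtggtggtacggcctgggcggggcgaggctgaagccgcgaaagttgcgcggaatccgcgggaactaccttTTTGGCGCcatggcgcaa
The letters occurred in 6 of 15 promoters of the list with a window (40%), in 3.67% of 8737 promoters of tested genes and in 1.8% of 27025 promoters in all. Mcm5, Mcm7 and E2f3 also held them, and Mcm5 and Mcm7 had libraries that overlapped. E2F factors are known to drive genes of this kind, so the higher share follows from the choice of genes and says nothing about the regions. A match describes the letters and not a bound site. The part of E2F factors in the differences was not tested.

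Immediate early genes lay lower in 14 of 18 (median -0.34, and -0.16 without cerebellum 3 and cortex 1). Egr1, the zinc finger factor of the first minutes after stimulation, had 3.01, 8.20 and 9.82 CPM in cerebellum, against 26.5, 13.8 and 34.1 CPM in cortex. All cerebellum libraries lay below all cortex libraries, with a difference of -1.82 (95% interval -3.24 to -0.40). Jun, of the AP-1 complex, had 200.2, 123 and 167 CPM in cerebellum, against 239, 192 and 232 CPM in cortex and overlapped, with a difference of -0.44. Fos was scarce in both regions, at 0.116, 2.73 and 3.11 CPM in cerebellum, against 6.15, 1.62 and 1.36 CPM in cortex, and Fosb and Egr3 had no count. The difference of Fos, -0.61, turned to 0.41 without cortex 1.

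Heat shock genes lay lower in 10 of 15 (median -0.23, and -0.12 without cerebellum 3 and cortex 1). Hspd1, the mitochondrial chaperonin HSP60, had 104, 127 and 101 CPM in cerebellum, against 150.4, 168 and 160.04 CPM in cortex, a difference of -0.53 (95% interval -0.95 to -0.11). Its partner Hspe1 had 55.1, 55.2 and 28.4 CPM in cerebellum, against 93.05, 65.1 and 55.3 CPM in cortex, a difference of -0.62 that was -0.37 without cerebellum 3 and -0.12 without cerebellum 3 and cortex 1. Hsph1, an HSP110 exchange factor, had 19.6, 33.7 and 26.8 CPM in cerebellum, against 37.4, 77.1 and 35.7 CPM in cortex, a difference of -0.91, and Hsp90aa1, the inducible HSP90, had -0.38. All 4 were lower without overlap (against 2.93% of all genes). Ddit4, a stress-induced inhibitor of mTOR signalling, was the member higher without overlap, at 4.29, 5.62 and 3.71 CPM in cerebellum, against 2.05, 3.30 and 2.09 CPM in cortex, while Hspa1a and Hspa1b, the inducible HSP70 genes, had almost no reads.

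Further genes with small p and libraries that did not overlap had varied roles. On the higher side, Cybasc3, of the cytochrome b561 family, had 640.3, 545 and 581 CPM in cerebellum, against 453, 378 and 359.9 CPM in cortex, a difference of 0.57 (95% interval 0.19 to 0.95). Adam9, a surface metalloprotease, had 194, 265 and 186 CPM in cerebellum, against 106, 132 and 167 CPM in cortex, a difference of 0.67. Crbn, the ubiquitin ligase receptor cereblon, had 108, 84.5 and 153 CPM in cerebellum, against 50.4, 63.998 and 77.9 CPM in cortex, a difference of 0.84 that was 0.44 without cerebellum 3 and cortex 1. Elac1, a tRNA-trimming enzyme, had 42.9, 48.7 and 54.98 CPM in cerebellum, against 15.6, 26.2 and 27.5 CPM in cortex, a difference of 1.08. Dapk1, the death-associated kinase, had 16.1, 21.5 and 55.7 CPM in cerebellum, against 7.29, 11.9 and 8.25 CPM in cortex, a difference of 1.76 that was 0.90 without those libraries, with cerebellum 3 far above the other 5.

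Dtx3l, a ubiquitin ligase of the DNA damage and interferon responses, had 39.8, 59.996 and 47.4 CPM in cerebellum, against 11.6, 32.2 and 12.5 CPM in cortex, a difference of 1.38. Mkrn1, a RING ubiquitin ligase, had 221, 164 and 174 CPM in cerebellum, against 105, 131 and 138 CPM in cortex, a difference of 0.58. Tmcc3, a membrane protein of the endoplasmic reticulum, and Mtmr12, an inactive phosphatase of the myotubularin family, differed by 0.85 and 0.91. The Mtmr12 difference was 0.53 without cerebellum 3 and 0.44 without cerebellum 3 and cortex 1. Crbn, Dtx3l and Mkrn1 act in ubiquitin transfer, a description of these 10 genes and not a tested theme. Runx1, a transcription factor of the microglial lineage, overlapped and differed by 0.58.

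On the lower side, Kdm5a, a histone H3K4 demethylase, had 39.6, 61.01 and 64.6 CPM in cerebellum, against 88.3, 129 and 91.4 CPM in cortex, a difference of -0.90 (95% interval -1.52 to -0.28). Gsr, glutathione reductase, had 34.8, 34.8 and 38.8 CPM in cerebellum, against 53.3, 61.8 and 66.1 CPM in cortex, a difference of -0.74. Acbd6, an acyl-CoA binding protein, had 23.5, 18.1 and 16.05 CPM in cerebellum, against 42.5, 35.1 and 31.7 CPM in cortex, a difference of -0.92. Anp32b, a histone chaperone, and Bop1, a ribosome assembly factor, differed by -0.56 and -0.64. Each kept its direction without cerebellum 3 and cortex 1.

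The 7 genes that DESeq2 called were scarce, and 6 of them rested on libraries with and without reads inside one region. Fbxl8, an F-box gene, was the exception, with 9.38, 3.44 and 9.46 CPM in cerebellum, against 0, 0.0647 and 0.418 CPM in cortex (DESeq2 adjusted p = 0.000269; edgeR adjusted p = 1.00) and a log2 difference of 5.53. It lay higher in every cerebellum library. Cd24a had 17, 64 and 0 counts in cerebellum, against 0 counts in all cortex libraries, and Cyfip2, a regulator of actin branching, had 0, 62 and 29 counts in cerebellum, against 0 counts in all cortex libraries. Ctf1, the cytokine cardiotrophin, had 0, 8 and 10 counts in cerebellum, against 0 counts in all cortex libraries. On the other side, Mum1l1 had 0 counts in all cerebellum libraries, against 0, 136 and 0 counts in cortex and Ppp2r2c, a phosphatase subunit, had 0 counts in all cerebellum libraries, against 33, 11 and 0 counts in cortex. In none of these 5 did every library of the higher region hold reads.

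Some genes were read in all libraries of one region and in none of the other. There were 32 with reads in 3 of 3 cerebellum libraries and 0 counts in cortex, of which 6 had at least 10 counts in each, and 24 the other way round, of which 2 had. All were low: the highest mean was 3.25 CPM on the cerebellum side and 2.60 CPM on the cortex side. Piwil2, a piRNA pathway gene, had 42, 21 and 27 counts in cerebellum, against 0 counts in all cortex libraries, at least 37.1-fold higher in cerebellum against a floor of 3 counts over the cortex libraries. Eid3 had 38, 41 and 10 counts in cerebellum, against 0 counts in all cortex libraries, at least 36.7-fold higher. Rora, the nuclear receptor known from Purkinje cells and the clock, had 9, 26 and 14 counts in cerebellum, against 0 counts in all cortex libraries, at least 20.2-fold higher. Pkia, an inhibitor of protein kinase A, had 0 counts in all cerebellum libraries, against 20, 31 and 41 counts in cortex, at least 24.8-fold lower in cerebellum, and Cav1, the caveolin of endothelium, had 0 counts in all cerebellum libraries, against 63, 38 and 1 counts in cortex, at least 27.5-fold lower.

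Sums over markers of other cell types overlapped between the regions, and some were one-sided within replicate numbers. Cd79b, which microglia also express, made up most of the lymphocyte sum, and Cd79a, of the same B cell receptor, had 4.29, 9.84 and 0 CPM in cerebellum, against 1.97, 1.36 and 0 CPM in cortex. Choroid plexus and ependymal genes summed to 0.348, 34.7 and 294 CPM in cerebellum libraries, against 0, 22.8 and 116 CPM in cortex libraries. Erythrocyte and platelet genes summed to 98.1, 19.1 and 13.5 CPM in cerebellum libraries, against 155, 107 and 19.8 CPM in cortex libraries. The plexus sum was higher in cerebellum in numbers 2 and 3 and near the floor of 3 counts in both libraries 1, and the erythrocyte sum was lower within each number. In both regions plexus genes were lowest in library 1 and highest in library 3, and erythrocyte genes ran the other way. Astrocyte genes summed to 55.0, 63.9 and 116 CPM in cerebellum, against 86.9, 60.2 and 118 CPM in cortex, most of it Slc1a3, and oligodendrocyte genes to 200.3, 129.5 and 126 CPM in cerebellum, against 182, 146 and 99.98 CPM in cortex. Endothelial genes summed to 660, 490.1 and 415 CPM in cerebellum, against 666, 459.8 and 460.3 CPM in cortex. Most of that sum was Bsg, a broadly expressed gene, while Cldn5 and Tek had no count and Cdh5 was lower without overlap, at 1.85, 1.87 and 1.32 CPM in cerebellum, against 4.41, 3.75 and 3.76 CPM in cortex. The part of these levels in the differences above was not tested. In bulk libraries such as these, fewer cells of a type and less RNA per cell cannot be told apart.

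Without cerebellum 3 and cortex 1, the libraries at the opposite ends of the length axis, edgeR again called 0 genes and 151 lay under an unadjusted p of 0.05. Cd74 (-1.72), Il10ra (0.49), Egr1 (-2.09), Kdm5a (-1.13), Gapdh (-0.35), Mcm3 (-0.51), Cyp51 (-0.88) and P2ry12 (0.39) kept the direction of their log2 difference. Abca1 (-1.25), Apoe (-0.11), H2-DMa (0.10), Mertk (-0.10) and Tgfbr1 (-0.18) did not. Removing cerebellum 1 alone raised the number of genes under an unadjusted p of 0.05 to 415, still with 0 called. A fit of the 6 libraries alone with the replicate number as a block put 843 genes under 0.05 before adjustment, 506 higher and 337 lower, with 0 called and a smallest adjusted p of 0.238, the value of Cd74 and of Sqle.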

How the data were processed

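The authors deposited whole-number read counts per gene symbol, without normalization, for all 12 libraries. The submitters' processing notes name mm10 as the build and list HTSeq, Picard, STAR 2.5.3a and Trim Galore 0.4.3. Tool roles, gene annotation and strand option were not given in the sources used here. The kit does not mark strand, so reads of overlapping antisense genes cannot be told apart. Among the symbols, 25 had been turned into dates. The number of genes above 0 matched the labelled number in all 12 libraries.

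The analysis used edgeR 4.0.16 in R 4.3.3: filterByExpr by region (minimum count 10, minimum total 15), TMM scaling, and the robust quasi-likelihood test on all 12 libraries with a mean for each region, contrast cerebellum minus cortex. The 4 regions share 1 estimate of the spread. P-values were adjusted by Benjamini-Hochberg over 12217 genes, and intervals are 95% intervals from the standard error of the fit. Alternatives were DESeq2 1.42.0, limma-voom (limma 3.58.1), RLE size factors, no low-count filter, the 6 libraries alone, each library left out, and a replicate block. Levels are CPM with TMM-scaled library sizes. The edgeR fit was also run on simulated counts with planted changes. How many of these it called is not given here, so the power of the test is not stated.

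Same-numbered cerebellum and cortex libraries deviated together from their region's mean (correlations of 0.287, 0.102 and 0.224 across genes for numbers 1, 2 and 3, against -0.225 to -0.0007 for other pairs), so the numbers, which come from the sample titles, were taken to pair the libraries. Deviations within a region cancel out in each gene. The negative values of other pairs therefore follow in part from the positive ones and are no separate evidence. Transcript lengths were the longest of each gene in GENCODE vM21, matched for 98.7% of tested genes. Promoters and positions came from RefSeq tables of GRCm38.p6. Floors of 3 counts cover counting error only, since PCR copies were not marked with molecular identifiers.

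The libraries, the 45 gene lists and the rule for named genes were chosen with earlier results of these data known. Of 840 list entries, 834 matched a symbol, 13 of them by an older one. Genes were named if they marked microglia (Tmem119, P2ry12, Cx3cr1, Csf1r and others), if they were among the 10 higher and the 10 lower with the smallest p of those with at least 5 CPM and no overlap, if they were among the 3 of a list with the smallest p, if any tool called them, or if they were read in 1 region only (up to 6 each way). A few genes meeting it are not reported here. Other members were named after their values were seen. The second part of the rule passed over predicted genes, clones and genes of ribosomal proteins.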

Additional observations from a re-analysis of the deposited data

How the results depend on the processing

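The count of called genes was 0 in 17 of 18 fits and 7 in DESeq2. The number of genes under an unadjusted p of 0.05 was 189; it moved to 285 with no low-count filter, 391 without striatum 2, 97 with a replicate block and a length correction, and 843 with a replicate block on the 6 libraries alone. Leaving out 1 cerebellum or cortex library gave 126 to 415, the highest without cerebellum 1. The replicate block on all 12 libraries gave 196 and changed no call. The similarity within minus between regions was negative in every alternative (-0.01169 to -0.00022 with 1 library left out) except with replicate means removed, where it was 0.01597. Removing those means makes same-numbered libraries deviate in opposite directions, which by itself lowers the correlation between regions. That value is therefore no test of grouping by region.

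Of 75 genes with a log2 difference in the text, 67 kept 1 sign in all 18 fits. Tmem119 turned to -0.030 in limma-voom and -0.015 in the 6-library block, and ranged from -0.37 to 0.39 with 1 library left out. Cx3cr1 was at -0.0076 with RLE and in DESeq2, -0.011 with no filter, -0.022 in limma-voom, -0.069 with the length correction and -0.048 with block and length, and ranged from -0.27 to 0.19. Without cerebellum 3 and cortex 1, H2-DMa (0.10), Abca1 (-1.25), Apoe (-0.11), Tgfbr1 (-0.18) and Mertk (-0.10) turned. With 1 library left out, Abca1 ranged from -0.81 (without cerebellum 3) to 1.46, and Fos from -1.08 to 0.41 (without cortex 1). Leaving out 1 cerebellum or cortex library made the difference over 1.5 times smaller, or turned it, in 38 of the 75. The medians of 18 of 42 lists kept 1 sign in every fit. The cause of each change was not tested. Alternatives with a length correction, and the block on 6 libraries, were chosen after seeing the data. In the 2 lowest expression quartiles the 95% interval had a median half-width of 3.24 and 1.29 on the log2 scale, and the part of depth in this was not tested.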

Other observations

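Clock genes, which set daily rhythms of transcription, lay above 0 in 11 of 15 (median log2 difference 0.36, and above 0 in all 18 fits, from 0.14 without cerebellum 3 and cortex 1 to 0.51 without cerebellum 1). Their sum was 188, 307 and 327 CPM in cerebellum libraries, against 191, 246 and 210 CPM in cortex libraries, so both libraries 1 held the least and the regions overlapped. No time of collection was analysed here. Autophagy genes lay above 0 in 14 of 23 (median 0.10, and 0.01 without cerebellum 3 and cortex 1) and iron handling genes in 5 of 13 (median -0.01, and -0.08 without them), with no member of either list free of overlap.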
